A study of Caenorhabditis elegans with 6 samples.

Results

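The comparison described here is between newly hatched Caenorhabditis elegans larvae of one genotype, elo-5(gk208), whose mothers had received different fatty acid supplements: C13ISO for the larvae that the labels call deficient in C17ISO, and C17ISO for their controls. Arrays were chosen by their labels alone, and the comparison uses 4 of the 6 arrays of the series, 2 from elo-5 C13ISO larvae and 2 from elo-5 C17ISO larvae. The remaining 2 arrays, from wild-type N2 larvae of mothers given C13ISO, are shown beside them because they entered the same model. No N2 larvae given C17ISO were analysed here.

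All larvae were unfed L1 animals. Both strains first spent a generation on OP50 bacteria with C17ISO dissolved in DMSO, so the C13ISO groups had also been exposed to C17ISO in the generation before. The next generation was raised to adulthood at 20 °C on 1 mM C13ISO or 1 mM C17ISO, eggs were freed from those adults with bleach, and the larvae were collected 24 h after the eggs had been placed on plates without food. Total RNA of whole worms was hybridised to Affymetrix C. elegans arrays, and the 2 arrays of a group are biological replicates according to the submitters. The allele gk208 is named without further description in the labels, and the larvae of each array are a pool of animals.

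C17ISO and C15ISO are branched-chain fatty acids with a methyl group next to the end of the chain. The worm makes them by extending a short branched precursor, and ELO-5 is the elongase required for the longer products, so elo-5 worms depend on C17ISO from the medium, while C13ISO lies upstream of the missing step. The acyl-CoA synthetase ACS-1 activates C17ISO, which is used to build the sphingoid bases of nematode sphingolipids. Larvae hatched without C17ISO are known to stop development at the first larval stage, before their first molt. A larva that hatches where bacteria are absent also stops at this stage, by a separate starvation response, and all 6 arrays here come from that unfed state.

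Values are the deposited intensities, given for replicate 1 and then replicate 2. Differences are elo-5 C13ISO minus elo-5 C17ISO on log2(intensity + 16), which understates the change of dim genes. Where a gene has several probe sets, the brightest stands for it. A gene was called, and is said to have risen or fallen, when limma's Benjamini-Hochberg adjusted p over all 15783 tested probe sets was under 0.05. Where a count below is 0 in one direction, an unadjusted p under 0.05 also gave 0 there, except for 1 proteasome subunit, 2 body wall muscle markers and 1 neuronal marker, all higher. By the adjusted rule 44.5% of tested probe sets were called, 25.7% higher and 18.8% lower in elo-5 C13ISO larvae, and every count below is to be read against those shares. The median log2 difference over all tested probe sets was 0.07. At least 2-fold changes made up 10.9% of tested probe sets in the upward direction and 7.49% in the downward direction. The 2 groups did not overlap for 71.4% of tested probe sets, 40.1% with elo-5 C13ISO higher and 31.3% with it lower, which with 2 arrays a group is weak evidence for any one gene. The direction of the whole comparison depended on scaling: 57.8% of called probe sets were higher as deposited, against 36.2% once the array medians were aligned, which moved the median difference to -0.16. The 5th and 95th percentiles of the difference were -1.34 and 1.51 as deposited. The median absolute difference between replicates was 0.21 in elo-5 C13ISO and 0.16 in elo-5 C17ISO on the log2 scale, and between these groups it was 0.40. In the same model 43.6% of probe sets were called between elo-5 C13ISO and N2 C13ISO larvae and 1.41% between elo-5 C17ISO and N2 C13ISO larvae.

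The labels were first set against the genes they concern. The elo-5 probe set read 217 and 144 in elo-5 C13ISO larvae, against 146 and 178 in elo-5 C17ISO larvae and 1170 and 1608 in N2 larvae. Both elo-5 groups were low and did not differ by the test (log2 difference 0.12 ± 0.22, adjusted p = 0.689); whether the probes fall inside the stretch removed by gk208 is not stated in the labels. Of the 13 genes of branched fatty acid synthesis and its regulators, 1 rose and 6 fell. elo-6, the elongase that works beside elo-5, had 1011 and 1009 in elo-5 C13ISO, against 2308 and 1708 in elo-5 C17ISO and 2262 and 2107 in N2, and acs-1 had 179 and 210 in elo-5 C13ISO, against 519 and 494 in elo-5 C17ISO and 435 and 462 in N2. Both fell in elo-5 C13ISO larvae, elo-6 by 1.95-fold and acs-1 by 2.49-fold, while sbp-1, the worm SREBP factor, rose 1.38-fold, not called with array medians aligned or without elo-5 C13ISO replicate 1, elo-5 C17ISO replicate 1 or either N2 array, and the fatty acid synthase gene fasn-1 was not called.

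Labelled stage and tissue were checked with marker lists for the cells a whole larva or a contaminating egg or adult could hold. Of 11 neuronal markers tested, 0 were called by limma, and 1 had an unadjusted p under 0.05. The synaptic vesicle gene snb-1 had 4954 and 4698 in elo-5 C13ISO, against 4551 and 4663 in elo-5 C17ISO and 4920 and 4565 in N2, and the 13 neuronal probe sets summed to 27876 and 26092 in elo-5 C13ISO, against 26242 and 25528 in elo-5 C17ISO and 25474 and 23510 in N2. Body wall muscle markers were similar, with 0 risen and 1 of 10 fallen. Markers of bacterially fed larvae gave 1 risen and 1 fallen of 7, and intestinal markers 5 risen and 3 fallen of 10. The lists that moved were epidermis (0 risen and 7 fallen of 10, median -1.1), pharyngeal muscle (7 of 7 risen, median 1.12), germ cells (7 of 10 risen, median 0.90) and oocyte and early embryo (17 risen and 1 fallen of 19 tested, median 2.22). Late embryo and hatching-stage markers went both ways, 3 risen and 4 fallen of 8. In whole-worm RNA, fewer cells of a type and less RNA per cell cannot be told apart.

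Genes for the outer covering of the larva were lower in elo-5 C13ISO larvae. The cuticle is secreted by the epidermis in layers and renewed at each molt, and circumferential furrows, built from a set of collagens that assemble together, give it its rings. All 5 furrow collagens on the array fell in elo-5 C13ISO larvae. dpy-3 had 334 and 428 in elo-5 C13ISO, against 3611 and 3619 in elo-5 C17ISO and 2805 and 2674 in N2, a log2 difference of -3.21 ± 0.13 (SE) or 9.22-fold lower with limma adjusted p = 1.2e-07. dpy-2 had 196 and 226 in elo-5 C13ISO, against 1208 and 1464 in elo-5 C17ISO and 1237 and 1383 in N2, and dpy-7 had 269 and 305 in elo-5 C13ISO, against 2126 and 2355 in elo-5 C17ISO and 1585 and 1708 in N2. In each of these genes the elo-5 C13ISO arrays lay far below all 4 others, with no overlap. dpy-8 and dpy-9 were 16.7-fold and 17.7-fold lower. Summed over the 5 genes, intensity was 1231 and 1318 in elo-5 C13ISO, against 14051 and 14781 in elo-5 C17ISO and 11435 and 11971 in N2.

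Among 12 other body-shape collagens tested, 8 fell and 2 rose, with a median of -1.79, or -1.07 with no filter on dim genes. rol-6 and sqt-1, collagens whose mutations twist the body, had 818 and 732 and 800 and 805 in elo-5 C13ISO, against 7932 and 8400 and 7466 and 7917 in elo-5 C17ISO and 8232 and 8420 and 7630 and 6992 in N2. These are 10.4-fold and 9.41-fold decreases. The long-body collagen lon-3 was 11-fold lower and dpy-5 9.79-fold lower. Their neighbours did not follow. sqt-3, an abundant collagen of early cuticles, had 11958 and 12622 in elo-5 C13ISO, against 11518 and 12466 in elo-5 C17ISO and 13623 and 13166 in N2, and was not called (adjusted p = 0.671), although it was called lower, by 0.19 on the log2 scale, once array medians were aligned. dpy-17, which assembles with SQT-3, went the other way, with 2532 and 5140 in elo-5 C13ISO, against 159 and 129 in elo-5 C17ISO and 81 and 70.3 in N2, 22.8-fold higher. The body-shape collagens therefore split by gene, with both directions beyond the spread between replicates.

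Enzymes that process collagen split too: of 14, 7 fell and 4 rose, or 2 rose without either elo-5 C17ISO array. phy-2, a catalytic subunit of the prolyl 4-hydroxylase that stabilises collagen, had 358 and 304 in elo-5 C13ISO, against 1325 and 1426 in elo-5 C17ISO and 1490 and 1623 in N2, 4.02-fold lower. The thioredoxin-related gene dpy-11 was 3.74-fold lower. mlt-7, a peroxidase that cross-links cuticle proteins, had 997 and 835 in elo-5 C13ISO, against 540 and 463 in elo-5 C17ISO and 723 and 680 in N2 and rose 1.80-fold. Cuticlins, the non-collagen part of the cuticle, gave 6 risen and 7 fallen of 28, or 4 and 11 with array medians aligned. cut-3 had 1009 and 1971 in elo-5 C13ISO, against 325 and 313 in elo-5 C17ISO and 158 and 137 in N2, 4.26-fold higher, and cutl-18 was 6.52-fold lower.

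The surface coat over the cuticle carries glycoproteins that pathogens and biofilm-forming bacteria attach to, and mutants with altered coats gave the bus (bacterially unswollen), bah (biofilm absent on head) and srf (altered surface antigen) genes. Of 18 such genes, 17 fell and 0 rose, with a median of -2.49. bus-5 had 354 and 396 in elo-5 C13ISO, against 2494 and 3148 in elo-5 C17ISO and 3732 and 3527 in N2, a log2 difference of -2.85 ± 0.14 (SE), 7.22-fold lower, limma adjusted p = 2.4e-07. bus-10 had 54.5 and 68.4 in elo-5 C13ISO, against 955 and 956 in elo-5 C17ISO and 691 and 786 in N2, 12.6-fold lower. bah-2 fell to 21.4 and 18.6 in elo-5 C13ISO, against 292 and 321 in elo-5 C17ISO and 344 and 316 in N2. The only member not called was srf-3, a nucleotide sugar transporter gene, at 33.5 and 31.9 in elo-5 C13ISO, 49.3 and 53 in elo-5 C17ISO and 67.4 and 56 in N2 (adjusted p = 0.0695), and it was called lower after quantile normalization, with array medians aligned or without the intensity trend. Folds in the list ran up to 17.7 for bah-1. The 18 genes summed to 2396 and 2754 in elo-5 C13ISO, against 15385 and 16701 in elo-5 C17ISO and 17342 and 17849 in N2. Against N2, with which the comparison shares the elo-5 C13ISO arrays, 18 of the 18 were called lower, and between elo-5 C17ISO and N2 their median difference was -0.05.

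Nematodes carry large families of secreted proteins related to Hedgehog and of membrane proteins related to its receptor Patched, many of them made by the epidermis and several required for molting. Of 36 hedgehog-related genes tested (54 on the array), 27 fell and 4 rose, with a median of -2.41. The filter matters for this median, because 18 dim members were left out; with no filter it was -0.76. The warthog gene wrt-10 had 259 and 346 in elo-5 C13ISO, against 3583 and 3340 in elo-5 C17ISO and 2625 and 2482 in N2, 11-fold lower. wrt-2 and wrt-6 were 9.22-fold and 12.4-fold lower, and qua-1, the single quahog gene, 10.2-fold lower. The ground-like gene grl-21 had 2575 and 3507 in elo-5 C13ISO, against 1039 and 848 in elo-5 C17ISO and 1392 and 1336 in N2. It was 3.16-fold higher, and grl-4 and grl-11 rose as well, by 1.93-fold and 4.03-fold, so the family was not uniform. Of 26 patched-related genes tested, 17 fell and 2 rose, with a median of -1.12, or -0.78 with no filter. ptr-4 had 247 and 362 in elo-5 C13ISO, against 1822 and 1839 in elo-5 C17ISO and 1617 and 1598 in N2, 5.86-fold lower, and che-14, a Dispatched-like gene of the epidermis and support cells, was 5.57-fold lower. ptr-22 was the larger of the increases, at 509 and 468 in elo-5 C13ISO, against 247 and 195 in elo-5 C17ISO and 91.7 and 76.3 in N2.

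**Figure D1:**
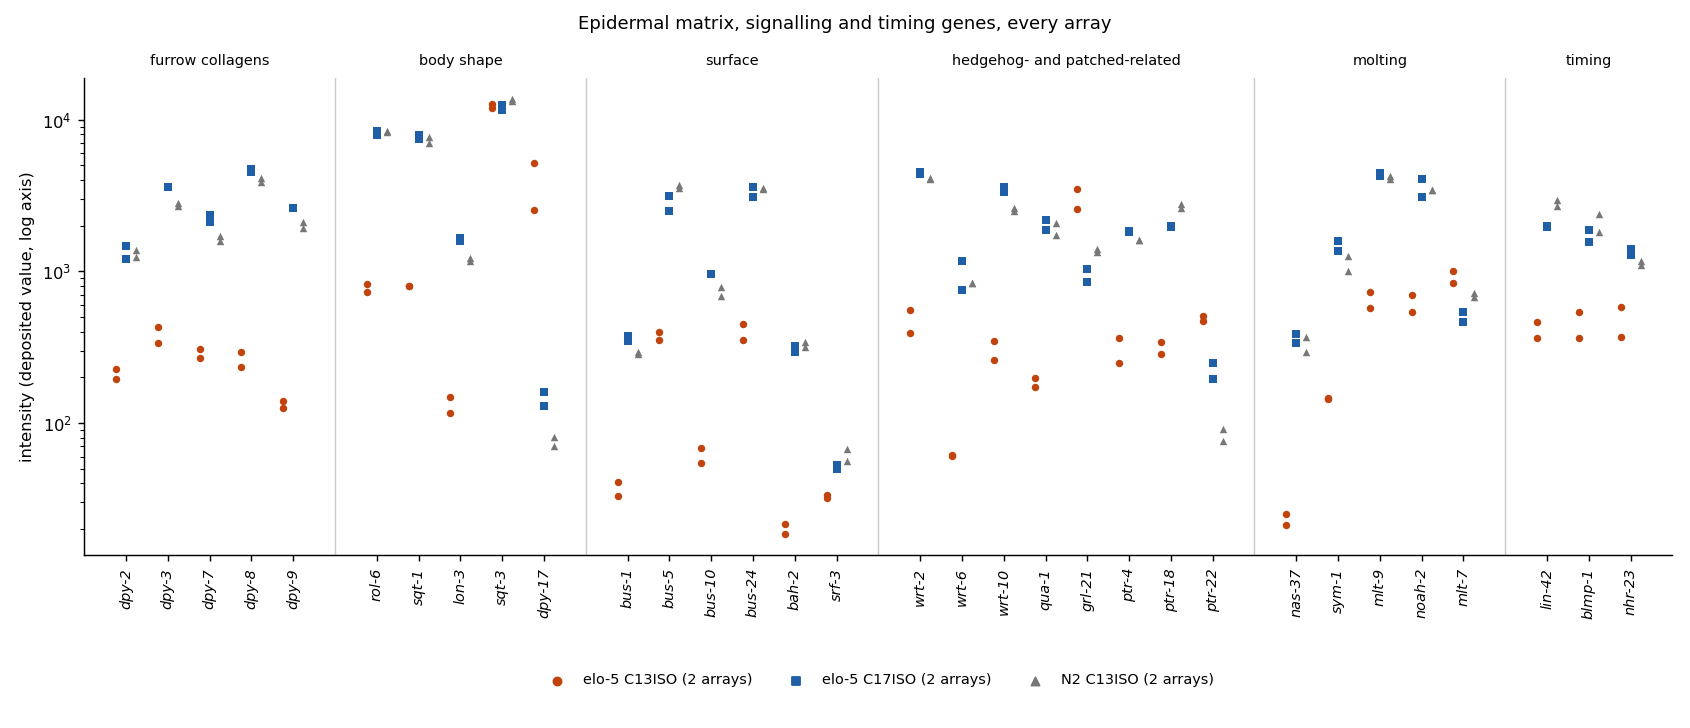
Deposited intensity on a log axis for 32 genes of the epidermal matrix and of developmental timing, with both arrays of each group as points (elo-5 C13ISO circles, elo-5 C17ISO squares, N2 C13ISO triangles). Most elo-5 C13ISO points lie below all others, sqt-3 is level, and dpy-17, grl-21, ptr-22 and mlt-7 are higher.

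Before a new cuticle is laid down, the epidermis secretes a transient precuticle and afterwards the proteases that free the old one. Of 29 precuticle and molting genes, 21 fell and 2 rose, with a median of -1.12. nas-37, an astacin protease needed to shed the cuticle, had 21.1 and 24.9 in elo-5 C13ISO, against 338 and 384 in elo-5 C17ISO and 293 and 371 in N2, a log2 difference of -3.27 ± 0.18 (SE) or 9.66-fold lower, limma adjusted p = 5.4e-07. sym-1, a leucine-rich-repeat protein of the precuticle, had 145 and 143 in elo-5 C13ISO, against 1571 and 1364 in elo-5 C17ISO and 1258 and 1002 in N2, and mlt-9 had 570 and 732 in elo-5 C13ISO, against 4438 and 4248 in elo-5 C17ISO and 4271 and 4027 in N2. Neither gene's groups overlapped, and the falls were 9.25-fold and 6.58-fold. noah-2, mlt-10 and mlt-11 were 5.66-fold, 7.43-fold and 5.84-fold lower. The wider family of astacin and matrix metalloproteases showed no such lean, with 11 risen and 14 fallen of 35, or 7 risen without either elo-5 C17ISO array: nas-8 was 2.90-fold higher, at 363 and 544 in elo-5 C13ISO, against 134 and 153 in elo-5 C17ISO. nas-6 also rose, by 1.90-fold, but its elo-5 C17ISO level of 610 and 865 was itself above the N2 level of 154 and 225, and it was not called without elo-5 C13ISO replicate 2 or elo-5 C17ISO replicate 1.

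The pharynx has a cuticle of its own. The abu and pqn genes encode glutamine- and asparagine-rich proteins, of which only some belong to that cuticle. Of 49 tested, 20 rose and 6 fell, with a median of 0.25, or 0.10 with no filter. The count of risen genes was 13 without elo-5 C17ISO replicate 2. By name, 6 of 8 abu genes rose and 2 fell, and 14 of 41 pqn genes rose and 4 fell. abu-11 had 1079 and 1827 in elo-5 C13ISO, against 468 and 455 in elo-5 C17ISO and 345 and 231 in N2, and pqn-52 was 3.33-fold higher. The opposite was seen for abu-13, with 436 and 549 in elo-5 C13ISO, against 3688 and 4263 in elo-5 C17ISO and 4332 and 4301 in N2, and for abu-12, 8.85-fold lower. The 10 epidermal markers, 9 of which are also members of gene lists given here, summed to 12998 and 13772 in elo-5 C13ISO, against 32616 and 32778 in elo-5 C17ISO and 33852 and 33671 in N2, with no marker at 0. Transcription factors of the epidermis differed among themselves: nhr-23 fell 2.84-fold and elt-1 1.62-fold, while lin-26, elt-3 and nhr-25 were not called (adjusted p = 0.0988, 0.156 and 0.578), though lin-26 and elt-3 were called lower with array medians aligned. What part epidermal cell number has in the matrix results was not tested.

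Molting is timed by regulators whose transcripts rise and fall once per larval stage. lin-42, the worm relative of the clock gene Period, had 464 and 361 in elo-5 C13ISO, against 1958 and 1984 in elo-5 C17ISO and 2950 and 2711 in N2, a log2 difference of -2.22 ± 0.14 (SE) or 4.67-fold lower, limma adjusted p = 1.2e-06. nhr-23, a nuclear receptor that drives molting genes, had 368 and 580 in elo-5 C13ISO, against 1406 and 1284 in elo-5 C17ISO and 1103 and 1163 in N2. blmp-1, a zinc-finger factor acting in the same process, was 3.77-fold lower. In all 3 genes the elo-5 C13ISO arrays were below the 4 others. Across 16 heterochronic genes, the set that orders larval fates, 3 rose and 4 fell, or 0 and 7 with array medians aligned. The count of rises was also not stable when single arrays were left out. lin-28, an RNA-binding protein of early fates, rose 1.37-fold and lin-29, a factor of later fates, fell 2.00-fold. lin-28 was not called with array medians aligned, without the intensity trend or without elo-5 C13ISO replicate 2 or elo-5 C17ISO replicate 1, and the count of falls became 8 without elo-5 C17ISO replicate 2.

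Of 18 genes of insulin signalling and L1 arrest, 7 rose and 3 fell. The insulin-like genes moved apart: ins-33 had 14 and 17.3 in elo-5 C13ISO, against 113 and 128 in elo-5 C17ISO and 144 and 233 in N2, 4.30-fold lower, whereas ins-6 had 89.8 and 95.4 in elo-5 C13ISO, against 18.6 and 20.2 in elo-5 C17ISO and 18.4 and 15.1 in N2, 3.07-fold higher. cki-1, a cyclin-dependent kinase inhibitor that holds arrested L1 cells, fell 1.51-fold. Of 18 TORC1 genes and inputs, 5 rose and 1 fell, with cgt-1, a glucosylceramide synthase, 3.15-fold higher and let-363, the TOR kinase, 1.57-fold higher. Of 34 cyclins, kinases and replication genes, 10 rose and 9 fell. rnr-1, the large subunit of ribonucleotide reductase, had 499 and 831 in elo-5 C13ISO, against 1621 and 1471 in elo-5 C17ISO and 1411 and 1322 in N2. It was 2.36-fold lower and the G1 cyclin cyd-1 2.08-fold lower, while cyb-2.2, a B-type cyclin, was 7.73-fold higher. Notch, Wnt and EGF genes were balanced, 9 risen and 10 fallen of 29. The Notch ligand lag-2 and the Wnt ligand lin-44 fell 3.56-fold and 3.52-fold, and mom-2, the Wnt of the early embryo, rose 5.62-fold.

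Maternal and germline transcripts were higher as a group in elo-5 C13ISO larvae. An oocyte is loaded with mRNAs that set up cell fates after fertilisation and that the embryo normally degrades, and the newly hatched larva carries a pair of primordial germ cells. Of 14 maternal CCCH and KH fate genes tested, 12 rose and 1 fell, with a median of 2.2. mex-5, a zinc-finger protein that polarises the zygote, had 981 and 1358 in elo-5 C13ISO, against 111 and 94 in elo-5 C17ISO and 200 and 158 in N2, a log2 difference of 3.31 ± 0.20 (SE) or 9.90-fold higher, limma adjusted p = 9.9e-07. gld-1, a KH translational repressor of the germ line, had 685 and 962 in elo-5 C13ISO, against 86.3 and 67 in elo-5 C17ISO and 210 and 124 in N2, 8.98-fold higher. pos-1 was abundant in all groups, with 2427 and 3079 in elo-5 C13ISO, against 1024 and 538 in elo-5 C17ISO and 1028 and 773 in N2. The one fall was moe-3, at 487 and 348 in elo-5 C13ISO, against 541 and 722 in elo-5 C17ISO and 1026 and 1050 in N2, and it was not called without the intensity trend or without elo-5 C13ISO replicate 2, elo-5 C17ISO replicate 2 or either N2 array. In most of these genes the second elo-5 C13ISO array was the higher, but for each of the 3 that rose here both were above every elo-5 C17ISO array.

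Eggshell and egg-activation genes gave 11 risen and 0 fallen of 14, with a median of 1.49, or 1.06 with no filter on dim genes. cbd-1, a chitin-binding eggshell protein, had 532 and 1071 in elo-5 C13ISO, against 69.1 and 67.4 in elo-5 C17ISO, 9.16-fold higher, and gna-2, which makes the precursor of chitin, was 7.01-fold higher. Of 8 Pumilio-family RNA-binding genes tested, 7 rose and 0 fell, with a median of 1.99. With no filter, 8 of the 10 on the array rose and 0 fell, with a median of 1.73. puf-5 had 318 and 608 in elo-5 C13ISO, against 53.1 and 39.7 in elo-5 C17ISO and 87 and 58.2 in N2, and puf-11 had 129 and 243 in elo-5 C13ISO, against 12.9 and 12 in elo-5 C17ISO and 32.6 and 15 in N2. Both elo-5 C13ISO arrays exceeded all others by a wide margin in the 2 genes, whereas puf-9, which acts in the soma, was not called (adjusted p = 0.176; adjusted p = 0.033 with the replicate block). Among 16 Argonautes, 8 rose and 1 fell. hrde-1, the nuclear Argonaute of germline inheritance, had 269 and 341 in elo-5 C13ISO, against 40.9 and 26 in elo-5 C17ISO and 102 and 59.6 in N2, 6.53-fold higher; nrde-3, its somatic counterpart, was 1.43-fold lower, not called without elo-5 C13ISO replicate 1 or either elo-5 C17ISO array.

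Germ cell genes themselves were mixed in size. Of 19 primordial germ cell and germ granule genes, 13 rose and 0 fell, with a median of 1.04. nos-2, the Nanos gene of germ cell fate, had 246 and 413 in elo-5 C13ISO, against 56.8 and 54.8 in elo-5 C17ISO and 63.6 and 63.7 in N2, and meg-1, a P granule regulator, had 588 and 565 in elo-5 C13ISO, against 126 and 80.7 in elo-5 C17ISO and 235 and 185 in N2. Each was clear of the elo-5 C17ISO arrays. pgl-3, a constitutive P granule protein, had 87 and 118 in elo-5 C13ISO, against 107 and 98.5 in elo-5 C17ISO and 62.4 and 95.9 in N2, and its groups overlapped. Of 20 synaptonemal and meiotic genes, 14 rose and 0 fell, among them him-3, a chromosome axis protein, 3.78-fold higher, and spo-11, which makes meiotic double-strand breaks, 3.70-fold higher, although an L1 larva has no meiotic cells. Of 27 early zygotic vet, pes and sdz genes, 16 rose and 4 fell, with sdz-24 4.66-fold lower. The hatching protease gene hch-1 is not in that list but is a late embryo and hatching-stage marker, a list with 3 risen and 4 fallen of 8. It had 467 and 1133 in elo-5 C13ISO, against 136 and 85.2 in elo-5 C17ISO and 108 and 101 in N2. The log2 difference of hch-1 was 2.59, against 3.21 without elo-5 C13ISO replicate 1 and 1.96 without elo-5 C13ISO replicate 2.

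The 20 oocyte and early embryo markers, all of them also members of gene lists given here, summed to 10873 and 16479 in elo-5 C13ISO, against 3951 and 3266 in elo-5 C17ISO and 4938 and 4259 in N2, and the germ cell markers to 4853 and 5816, 4687 and 3493, and 4321 and 4243 in the same order of groups. Of 5 adult yolk protein genes, 2 passed the filter and neither was called. With no filter on dim genes 1 of the 5 was called higher. vit-1, left out by the filter, had 27.4 and 40.6 in elo-5 C13ISO, against 13.1 and 10.6 in elo-5 C17ISO and 14.4 and 13.6 in N2. vit-6, the brightest, had 118 and 111 in elo-5 C13ISO, against 113 and 140 in elo-5 C17ISO and 132 and 168 in N2, and all 5 summed to 204 and 217 in elo-5 C13ISO, against 179 and 208 in elo-5 C17ISO and 216 and 228 in N2. Of 14 sperm genes 7 were tested, of which 0 rose and 2 fell. What part unhatched eggs have in these increases was not tested.

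**Figure D2:**
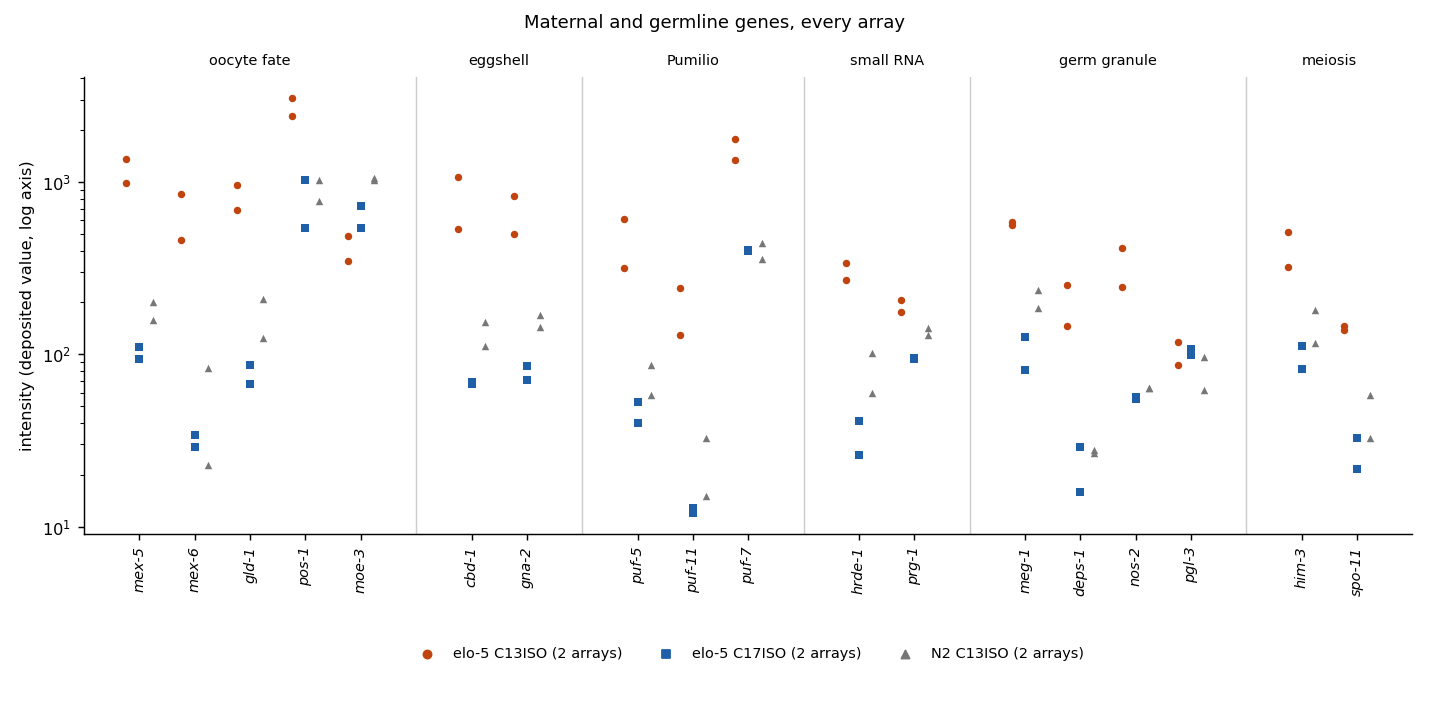
Deposited intensity on a log axis for 18 maternal and germline genes, with both arrays of each group as points (elo-5 C13ISO circles, elo-5 C17ISO squares, N2 C13ISO triangles). Both elo-5 C13ISO points lie above the others for all genes but moe-3, which is lower, and pgl-3, which overlaps.

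Within the gut the changes differed by component. The brush border of intestinal cells is anchored in a sheath of intermediate filaments. Of 13 genes for this layer and for apical junctions, which other epithelia also have, 10 rose (6 with array medians aligned) and 2 fell. By their brightest probe sets ajm-1 counts as risen and eps-8 as fallen, though other probe sets of each were called in the opposite direction. ifo-1, which organises the sheath, had 2384 and 2051 in elo-5 C13ISO, against 624 and 484 in elo-5 C17ISO and 960 and 741 in N2, a log2 difference of 1.98 ± 0.17 (SE), 3.94-fold higher. The filament genes ifd-2 and ifp-1 were 3.23-fold and 2.68-fold higher. ifc-1 fell, with 189 and 243 in elo-5 C13ISO, against 330 and 344 in elo-5 C17ISO and 882 and 882 in N2; here elo-5 C17ISO was already below N2 (adjusted p = 0.00512), and the fall was not called without elo-5 C17ISO replicate 2. Aspartic and cathepsin proteases, a class that includes digestive enzymes, leaned the other way. Of 21 tested, 12 fell and 2 rose. The list is not confined to the gut, and cpl-1 and cpz-1 are also among the precuticle and molting genes. asp-8 had 195 and 181 in elo-5 C13ISO, against 1179 and 1088 in elo-5 C17ISO and 1392 and 1013 in N2, 5.63-fold lower. cpr-1 was 3.82-fold lower, while cpr-3 was 4.34-fold higher.

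Of 19 subunits of the vacuolar proton pump, 7 fell and 2 rose, or 10 and 1 with array medians aligned. The fallen count was not stable when single arrays of any of the groups were left out. Among the members was a gene whose probe sets were called in opposite directions. vha-6, the intestinal form of one subunit, fell 1.46-fold, and was not called without elo-5 C17ISO replicate 1. Of 32 peptide, amino acid and sugar transporters, 6 rose and 8 fell, and leaving out single arrays took the falls down to 3. The oligopeptide transporter pept-1 had 699 and 467 in elo-5 C13ISO, against 330 and 258 in elo-5 C17ISO and 218 and 213 in N2. The sugar transporters swt-6 and swt-5 moved apart, swt-6 at 3.56-fold higher and swt-5 at 7.84-fold lower. Claudin-like proteins are membrane proteins of the kind found at cell junctions. Of 18 tested, 11 rose and 6 fell, with a median of 1.00. With no filter on dim genes, 12 of the 23 on the array rose and 6 fell, with a median of 0.55. clc-25 rose to 445 and 339 in elo-5 C13ISO, against 17.4 and 12.1 in elo-5 C17ISO and 29.2 and 9.63 in N2. clc-11 was 12.5-fold higher and clc-19, already bright in the controls, 3.38-fold higher, whereas clc-7 was 2.26-fold lower. The 10 intestinal markers summed to 23692 and 22805 in elo-5 C13ISO, against 24447 and 23148 in elo-5 C17ISO and 26217 and 25812 in N2, so their total was close while their members split.

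Most lipid carrier genes fell, as did some peroxisomal ones. Of 16 fatty acid binding and transport proteins, 13 fell and 1 rose, with a median of -0.66. far-3, a secreted fatty acid and retinol binding protein, had 1521 and 1491 in elo-5 C13ISO, against 8479 and 8044 in elo-5 C17ISO and 8862 and 8335 in N2, a log2 difference of -2.44 ± 0.08 (SE) or 5.44-fold lower, limma adjusted p = 4.9e-08. far-7 was the exception, with 4715 and 4519 in elo-5 C13ISO, against 2332 and 2411 in elo-5 C17ISO and 2913 and 2388 in N2. Of 20 genes of peroxisome biogenesis and of ascaroside side-chain shortening, 9 fell, 0 rose and 11 were not called. maoc-1, dhs-28 and daf-22, which carry out consecutive steps of peroxisomal beta-oxidation, fell 3.62-fold, 2.24-fold and 2.13-fold. maoc-1 had 1449 and 1292 in elo-5 C13ISO, against 5446 and 4592 in elo-5 C17ISO and 4284 and 4044 in N2. The peroxisomal catalase ctl-2 had 1281 and 1089 in elo-5 C13ISO, against 3503 and 3970 in elo-5 C17ISO and 3961 and 3908 in N2, 3.13-fold lower, whereas prx-5, the receptor that imports peroxisomal enzymes, was not called (adjusted p = 0.509).

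Of 41 short-chain and aldehyde dehydrogenases, 23 fell and 9 rose, with a median of -0.47; the rises numbered 5 without elo-5 C13ISO replicate 1 and 4 without elo-5 C17ISO replicate 2. dhs-6 had 480 and 607 in elo-5 C13ISO, against 4374 and 4418 in elo-5 C17ISO and 3691 and 3607 in N2, 7.93-fold lower, and dhs-14 was 2.87-fold higher. Of 14 desaturases and elongases tested, a list that also holds elo-5 and elo-6, 8 fell and 0 rose, elo-6 among the falls. The largest falls of the list were in fat-5, 8.67-fold, and elo-4, 6.29-fold. fat-5 had 30.7 and 39.2 in elo-5 C13ISO, against 410 and 439 in elo-5 C17ISO and 391 and 399 in N2. The omega-3 desaturase fat-1 had 2170 and 1682 in elo-5 C13ISO, against 3633 and 3540 in elo-5 C17ISO and 4517 and 4388 in N2, and the front-end desaturases fat-3 and fat-4 were 1.6-fold and 1.85-fold lower, fat-3 no longer so without elo-5 C17ISO replicate 1. fat-2 and elo-2 were not called (adjusted p = 0.782 and 0.327), though fat-2 was called lower with array medians aligned. Membrane acyltransferases were balanced, 11 risen (6 without elo-5 C17ISO replicate 2) and 9 fallen of 35, with oac-24 10.3-fold lower and oac-3 3.29-fold higher. ABC transporters, pumps for lipids and xenobiotics, leaned up with 19 risen and 4 fallen of 44, or 17 and 9 with array medians aligned. The P-glycoprotein gene pgp-1 had 857 and 1445 in elo-5 C13ISO, against 202 and 209 in elo-5 C17ISO and 298 and 195 in N2, and abt-4 was 5.05-fold higher. pmp-2, a peroxisomal ABC transporter, was 2.44-fold lower.

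Among called genes that adapt proteins for ubiquitin-dependent degradation, increases outnumbered decreases, and the subunits of the degrading complex were lower or not called. F-box proteins choose substrates and SKP1-related proteins connect them to cullins. Of 145 F-box genes tested, out of 310 on the array, 73 rose and 13 fell, with a median of 0.58. With no filter 114 rose and the median was 0.35; the 13 falls became 8, 7 and 6 when elo-5 C13ISO replicate 2, elo-5 C17ISO replicate 1 or elo-5 C17ISO replicate 2 was left out. fbxc-58 had 1676 and 1779 in elo-5 C13ISO, against 264 and 218 in elo-5 C17ISO and 478 and 249 in N2, a log2 difference of 2.77 ± 0.25 (SE), 6.80-fold higher. fbxa-53 was 5.79-fold higher and fbxa-5 4.94-fold lower. Of 45 BATH, MATH and BTB genes tested, another class of adaptors, 25 rose and 3 fell, with a median of 0.75, or 0.29 with no filter; bath-46 had 245 and 190 in elo-5 C13ISO, against 53 and 55.4 in elo-5 C17ISO and 60.9 and 53.7 in N2. Of 22 SKP1-related and cullin genes tested, 12 rose and 1 fell, or 13 and 1 of the 25 on the array with no filter. skr-14 had 123 and 202 in elo-5 C13ISO, against 8.97 and 12.9 in elo-5 C17ISO and 41.7 and 22.9 in N2, and skr-9 had 562 and 1079 in elo-5 C13ISO, against 86.9 and 70.1 in elo-5 C17ISO and 257 and 215 in N2. Both rose, by 6.48-fold and 8.45-fold; the elo-5 C17ISO level of skr-9 was below the N2 level (adjusted p = 0.0349). Of 33 proteasome subunits, 0 rose and 17 fell, with a median of -0.32, and the falls numbered 10 when elo-5 C17ISO replicate 1, elo-5 C17ISO replicate 2 or either N2 array was left out and 26 with array medians aligned. rpt-5, an ATPase of the cap, had 667 and 564 in elo-5 C13ISO, against 1266 and 1067 in elo-5 C17ISO and 1140 and 1242 in N2. The changes were small, 1.87-fold for rpt-5 and 1.61-fold for pbs-1, a core subunit.

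Innate immune families were also split. Of 17 pals and irg genes tested, known from responses to pathogens, 9 rose and 4 fell, with a median of 1.09, or 0.49 with no filter on dim genes. irg-8 had 2317 and 2037 in elo-5 C13ISO, against 281 and 289 in elo-5 C17ISO and 371 and 332 in N2, 7.27-fold higher, and irg-3 was 3.43-fold lower. irg-5 was 5.65-fold lower, at 106 and 56.6 in elo-5 C13ISO, against 571 and 465 in elo-5 C17ISO and 1323 and 1439 in N2, and elo-5 C17ISO was itself below N2 (adjusted p = 0.0208). Lysozymes gave 3 risen and 3 fallen of 10. lys-3 had 1982 and 1718 in elo-5 C13ISO, against 185 and 190 in elo-5 C17ISO and 258 and 203 in N2, 9.14-fold higher. ilys-5 had 319 and 262 in elo-5 C13ISO, against 1341 and 1075 in elo-5 C17ISO and 384 and 489 in N2, so its elo-5 C13ISO arrays, though 3.99-fold below elo-5 C17ISO, lay nearer the N2 arrays. Saposin-like genes leaned down, 2 risen and 9 fallen of 15. Epidermal and secreted antimicrobial peptides leaned up, 14 risen and 3 fallen of 26, or 8 risen without elo-5 C17ISO replicate 2; cnc-6 had 921 and 867 in elo-5 C13ISO, against 218 and 106 in elo-5 C17ISO and 125 and 92.8 in N2, and cnc-3 fell, with 731 and 818 in elo-5 C13ISO, against 3627 and 3398 in elo-5 C17ISO and 2605 and 2629 in N2. Of 87 C-type lectins tested, out of 220, 21 rose and 26 fell, the falls numbering 17 without elo-5 C17ISO replicate 1. clec-174 was 8.39-fold higher at 4482 and 4008 in elo-5 C13ISO, against 573 and 421 in elo-5 C17ISO, and clec-230 7.98-fold lower at 292 and 356 in elo-5 C13ISO, against 2639 and 2730 in elo-5 C17ISO.

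Muscles differed by organ. The pharynx, the feeding pump, uses its own myosins and troponins. Of 10 pharyngeal contractile genes, 8 rose and 0 fell, with a median of 0.93. The pharyngeal myosin myo-2 had 3296 and 4868 in elo-5 C13ISO, against 1903 and 1772 in elo-5 C17ISO and 1233 and 1027 in N2, a log2 difference of 1.12 ± 0.17 (SE), 2.17-fold higher. The troponin gene tnt-4 had 2624 and 3379 in elo-5 C13ISO, against 1015 and 810 in elo-5 C17ISO and 613 and 626 in N2, and myo-5 had 3074 and 4380 in elo-5 C13ISO, against 1301 and 888 in elo-5 C17ISO and 797 and 581 in N2. In each, elo-5 C13ISO exceeded elo-5 C17ISO, which in turn lay above N2 without passing the test (adjusted p = 0.0906 for myo-2). ceh-22, a homeobox factor of pharyngeal muscle, was 3.47-fold higher, and inx-6, a pharyngeal gap junction protein, 4.40-fold higher. The 7 pharyngeal markers, all of them also members of gene lists given here, summed to 23286 and 29395 in elo-5 C13ISO, against 12927 and 10998 in elo-5 C17ISO and 8523 and 7484 in N2. Of 32 body wall muscle contractile genes, 3 rose and 5 fell, with a median of 0.01, and 1 rose and 11 fell with array medians aligned. The body wall myosin unc-54 had 5266 and 5854 in elo-5 C13ISO, against 6702 and 6200 in elo-5 C17ISO and 7071 and 6302 in N2 and was not called (adjusted p = 0.074; called lower with array medians aligned), and tnt-2 was 1.56-fold lower. unc-52, the perlecan under these muscles, fell 2.67-fold at its brightest probe set and rose at 2 other probe sets. It is counted among the 5 falls by the brightest alone, although its probe sets disagree.

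**Figure D3:**
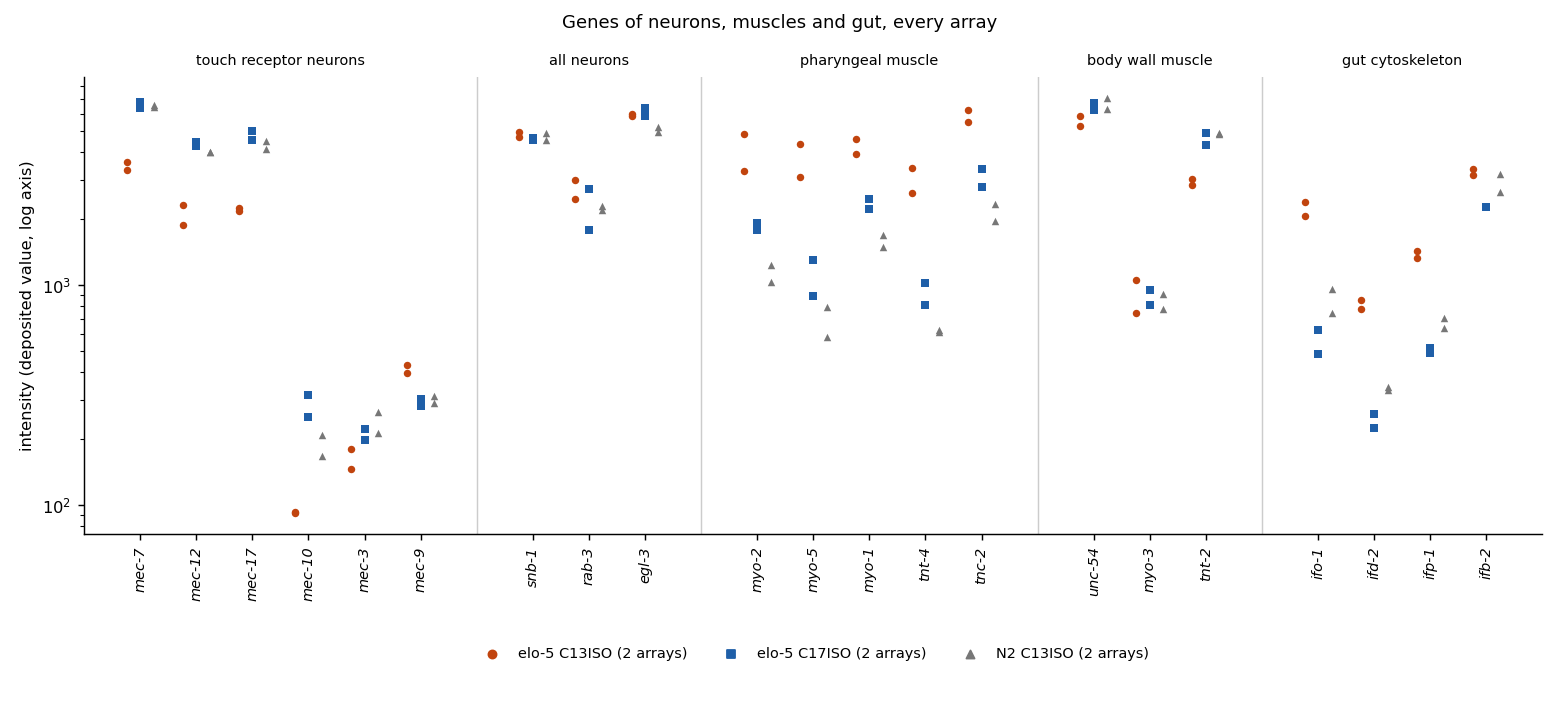
Deposited intensity on a log axis for 21 genes of touch receptor neurons, neurons in general, pharyngeal muscle, body wall muscle and gut cytoskeleton, with both arrays of each group as points (elo-5 C13ISO circles, elo-5 C17ISO squares, N2 C13ISO triangles). Points of elo-5 C13ISO are lowest for the touch receptor genes other than mec-9 and for unc-54 and tnt-2, and highest for the pharyngeal genes, while snb-1, rab-3, egl-3 and myo-3 overlap or nearly so.

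Most genes known for touch receptor neurons fell. Touch receptor neurons sense gentle touch through a channel and a bundle of special microtubules. Of 18 such genes, 12 fell and 1 rose, with a median of -0.63; a difference from other classes of neurons was not tested. mec-7, their beta-tubulin, had 3325 and 3608 in elo-5 C13ISO, against 6775 and 6384 in elo-5 C17ISO and 6588 and 6402 in N2, a log2 difference of -0.92 ± 0.08 (SE), 1.89-fold lower, limma adjusted p = 1.1e-05. mec-12, their alpha-tubulin, had 1862 and 2298 in elo-5 C13ISO, against 4434 and 4295 in elo-5 C17ISO and 4021 and 4018 in N2, and mec-17, which acetylates it, had 2164 and 2226 in elo-5 C13ISO, against 4984 and 4547 in elo-5 C17ISO and 4489 and 4151 in N2. In all 3 genes the elo-5 C13ISO arrays were the lowest, and the elo-5 C17ISO and N2 arrays lay side by side. The channel subunits mec-10 and mec-4 fell 2.75-fold and 1.59-fold, mec-4 not without elo-5 C17ISO replicate 2. mec-5, a collagen that the epidermis provides to these neurons, fell 2.26-fold. The gene that rose was mec-9, another secreted protein, with 399 and 434 in elo-5 C13ISO, against 302 and 281 in elo-5 C17ISO and 314 and 291 in N2, not called with array medians aligned or without elo-5 C13ISO replicate 2 or either elo-5 C17ISO array. Of their regulators, unc-86 fell 1.76-fold and mec-3 was not called (adjusted p = 0.153), though it was called lower after quantile normalization or with array medians aligned.

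Receptor, channel and cilium genes were called in both directions. Of 83 neuropeptide and monoamine receptors, 13 rose and 5 fell, of 78 ligand-gated ion channels 21 rose and 12 fell, of 55 potassium channels 9 rose and 8 fell, and of 55 cilium genes 6 rose and 5 fell. The receptor and channel counts are unstable: leaving out single arrays gave as few as 8 rises and 1 to 12 falls among the receptors, 1 to 8 among the potassium channels and as few as 12 rises and 6 falls among the ligand-gated channels. With array medians aligned, falls outnumbered rises, at 23 against 7 for the receptors, 20 against 15 for the ligand-gated channels, 12 against 5 for the potassium channels and 7 against 1 for the cilium genes. Single members moved far. The potassium channel gene twk-11 had 339 and 608 in elo-5 C13ISO, against 22.1 and 26.3 in elo-5 C17ISO and 25.4 and 16.2 in N2, 11.7-fold higher, and lgc-22 had 284 and 381 in elo-5 C13ISO, against 3129 and 3125 in elo-5 C17ISO and 3486 and 3576 in N2, 9.11-fold lower. dyf-4, needed for dye uptake by ciliated neurons, fell 9.43-fold. Of 23 innexins, the gap junction proteins of invertebrates, 11 rose and 5 fell (3 without elo-5 C17ISO replicate 1), with the germline innexin inx-14 7.43-fold higher and inx-12 1.96-fold lower. Of 64 homeobox factors, 24 rose and 10 fell (5 without elo-5 C17ISO replicate 1), or 17 rose and 19 fell with array medians aligned, among them lin-39, a Hox gene of the mid-body, 2.58-fold higher. Of 51 bHLH, T-box, forkhead, bZIP and GATA factors, 14 rose and 14 fell. cnd-1, a NeuroD relative of embryonic neurons, had 43.1 and 38.1 in elo-5 C13ISO, against 274 and 336 in elo-5 C17ISO and 375 and 326 in N2, 5.65-fold lower, and zip-10 had 2001 and 1691 in elo-5 C13ISO, against 498 and 319 in elo-5 C17ISO and 327 and 350 in N2, 4.47-fold higher.

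Of 18 actins and tubulins, 11 fell and 4 rose, with a median of -0.53. The list also holds mec-7 and mec-12, already given among the touch receptor neuron genes. tba-1, a general alpha-tubulin, had 4143 and 4675 in elo-5 C13ISO, against 8333 and 8063 in elo-5 C17ISO and 8683 and 8478 in N2, 1.86-fold lower, and tba-8 was 11.7-fold lower. tba-7 and tbb-6 were higher, by 2.07-fold and 2.96-fold. Rab and Arf GTPases, which direct membrane traffic, were called rarely, 4 risen and 3 fallen of 28 (3 and 9 with array medians aligned): rab-11.2 was 20.1-fold higher and rab-6.2 2.35-fold lower. The secreted ttr and nspa to nspe families gave 19 risen and 9 fallen of 45 (17 and 18 with array medians aligned), with ttr-29 6.15-fold higher and ttr-12 6.39-fold lower.

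Lists of translation, splicing and protein folding had medians between -0.04 and 0.12. Of 76 cytosolic ribosomal proteins, 8 rose and 0 fell, with a median of 0.12; when array medians were aligned 0 rose and 21 fell, and leaving out single arrays gave between 1 and 13 rises. Mitochondrial ribosomal proteins gave 5 and 5 of 57, aminoacyl-tRNA synthetases 3 and 3 of 33, splicing factors 6 risen and 2 fallen of 37, and chaperonins, prefoldins and DnaJ proteins 6 risen and 3 fallen of 41. With array medians aligned, falls outnumbered rises in these 4 lists too, at 17 against 0, 7 against 0, 12 against 4 and 10 against 2. Leaving out single arrays took the mitochondrial ribosomal falls down to 1, the splicing rises up to 10 and the chaperonin rises down to 2. fib-1, the nucleolar fibrillarin, was 1.97-fold higher, with 2022 and 3009 in elo-5 C13ISO, against 1226 and 1260 in elo-5 C17ISO and 1627 and 1674 in N2. Of 29 histone genes, 13 fell and 4 rose, with a median of -0.31, and 20 fell with array medians aligned. his-74, an H3.3-type histone, had 497 and 675 in elo-5 C13ISO, against 152 and 162 in elo-5 C17ISO and 188 and 171 in N2, 3.45-fold higher, and his-39 was 2.15-fold lower. Histone values carry a limit, as 20 of the 34 on the array rest on probe sets that the manufacturer marks as shared between transcripts, and so do 48 of the 77 ribosomal genes.

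Stress genes were mixed. Of 12 small heat shock proteins, 7 rose and 1 fell. sip-1, a small heat shock protein of embryos, was 9.43-fold higher and hsp-17 4.57-fold higher, while hsp-16.41, a classic heat-induced gene, was not called (adjusted p = 0.388). Of 12 superoxide dismutases, catalases and peroxiredoxins, 6 fell and 3 rose: the mitochondrial sod-2 had 646 and 618 in elo-5 C13ISO, against 1299 and 1343 in elo-5 C17ISO and 1506 and 1687 in N2, 2.06-fold lower, and the extracellular sod-4 was 1.69-fold higher, not called without elo-5 C17ISO replicate 2.

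**Figure D4:**
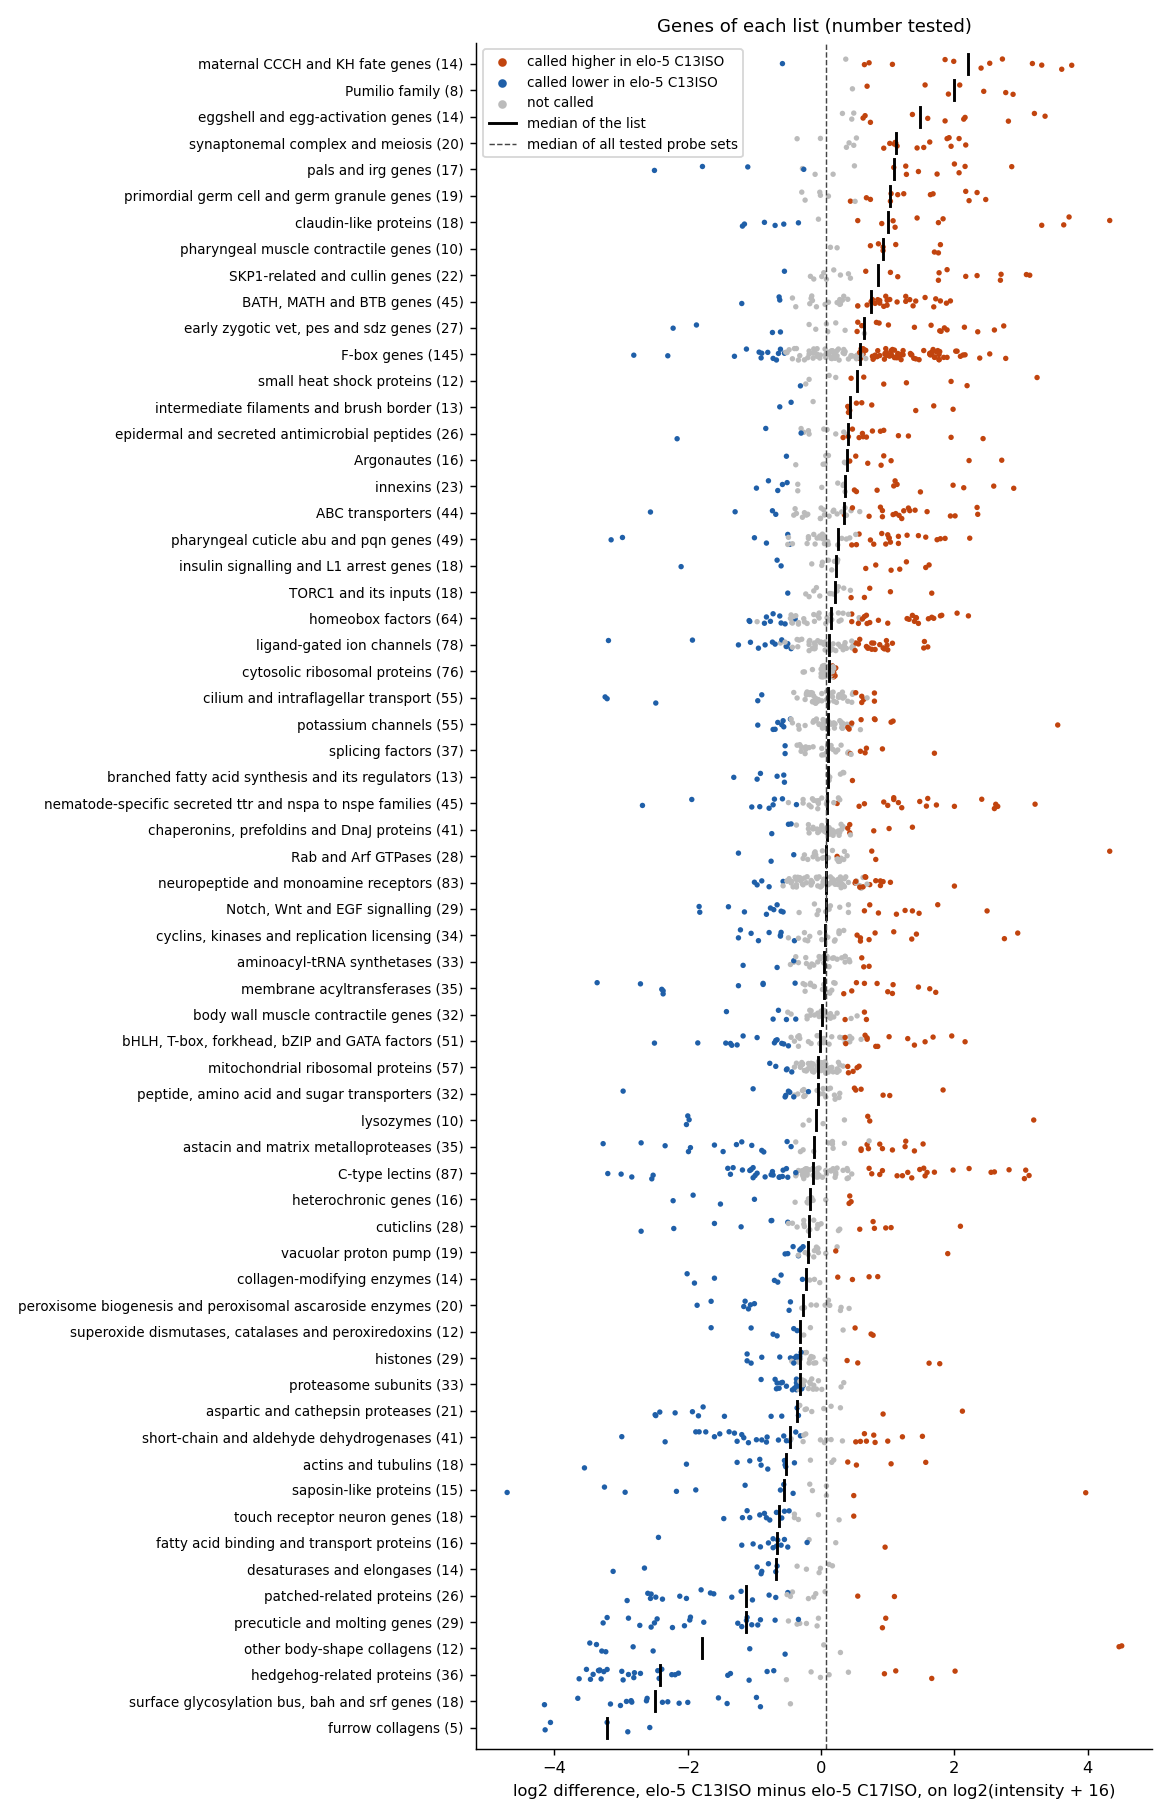
Log2 difference, elo-5 C13ISO minus elo-5 C17ISO, of each tested gene (points) in the 64 gene lists, ordered by list median (black bars), with the median of all tested probe sets as a dashed line. Maternal fate genes lie furthest up, with a median of 2.2, and furrow collagens furthest down, with a median of -3.21; in many lists called genes point both ways.

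Among the 40 largest increases and 40 largest decreases by probe set were genes in none of the lists. mtre-1 had 1201 and 2067 in elo-5 C13ISO, against 129 and 115 in elo-5 C17ISO and 123 and 76.1 in N2, and dod-19 had 4201 and 3446, against 336 and 243 and 321 and 246 in the same groups. Both rose, by 11.6-fold and 12.6-fold. The lipase-like gene lips-7 had 113 and 145 in elo-5 C13ISO, against 1832 and 1713 in elo-5 C17ISO and 1421 and 1568 in N2. It fell 12.4-fold.

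By chromosome, 27.2% of the 12057 genes tested through their brightest probe set were higher and 18.9% lower. As deposited, chromosome X was the one where decreases outnumbered increases, with 22.9% higher and 24.5% lower. Among nuclear chromosomes, V had the highest share of increases, 30.4%. These shares were not computed with array medians aligned, where 4863 probe sets were lower and 2760 higher over the whole array. Of 7 genes of the mitochondrial genome, 6 rose, by small amounts; they were chosen for mention after their values were seen. ND1 had 8156 and 8064 in elo-5 C13ISO, against 5781 and 5826 in elo-5 C17ISO and 7658 and 7268 in N2, and COX2 had 5733 and 5466, against 3947 and 4210 and 4950 and 4960. ATP6 was not called (adjusted p = 0.235).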

How the data were processed

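Affymetrix C. elegans arrays measured RNA of unfed L1 larvae. There were 3 groups of 2 arrays, assigned from the sample titles and supplement labels. The deposited values are linear intensities, 1 per probe set and array, made by the authors with dChip per the labels. Which dChip version was used, whether mismatch probes entered and how arrays were scaled to each other: not given in the sources used here. Precision is limited by the number of arrays, and no depth applies.

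Of 22548 probe sets, 20766 were annotated to 1 gene, 887 to several and 895 to none in GEO's platform annotation, and 20701 of the one-gene symbols were found among RefSeq's gene names (assembly WBcel235). Those with several or none were tested but not named. Intensities were analysed as log2(intensity + 16), and probe sets whose mean log2 value was above the 30th percentile were tested, 15783 in all. One model without covariates was fitted to all 6 arrays with limma 3.58.1 in R 4.3.3 (lmFit, eBayes with an intensity trend), so that the 3 groups share 1 estimate of the spread, and p-values were adjusted by Benjamini and Hochberg over all tested probe sets. The procedure was tested on simulated data. Tables and figures were made with Python 3.11.15, pandas 2.3.3 and matplotlib 3.10.9. Each gene is represented by its brightest one-gene probe set.

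The comparison, the 64 gene lists and the 11 cell type marker lists were chosen with earlier results of these data known, so no list is given a test of its own and each is described by its counts and median. Named are elo-5, elo-6 and acs-1, the 40 largest increases and 40 largest decreases among called one-gene probe sets with non-overlapping arrays, up to 6 called genes per direction in each list, any member of a list of at most 20 genes, and any marker. Exceptions are stated where they occur.

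Replicate numbers are the same in the 3 groups, and the labels do not say that they pair samples. Same-numbered deviations from the group means correlated at 0 between the elo-5 groups, and at 0.05 and 0.08 with N2, so the numbers were taken not to pair the arrays. Alternatives were another offset (1 or 64), no filter or the 50th percentile, quantile normalization or aligned medians, eBayes without trend or with a robust prior, only the elo-5 arrays, the replicate number as a block, a 2-fold minimum, the mean over a gene's probe sets, and leaving out each array.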

Additional observations from a re-analysis of the deposited data

How the results depend on the processing

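The number of probe sets called between elo-5 C13ISO and elo-5 C17ISO larvae, 7026, was within 1.5 times under every alternative except a 2-fold minimum, which by its construction left 2903, of which 1721 were higher and 1182 lower. The number called lower, 2964, became 4863 when array medians were aligned, and the number called higher, 4062, became 2760. The share of calls that were higher was then 36.2%, against 57.8% as deposited and 51.7% after quantile normalization. Leaving out 1 array at a time gave 5342 to 6762 calls, of which 2911 to 3783 were higher and 2208 to 2979 lower. With the replicate number as a block, 7175 were called, 4163 higher and 3012 lower, and with that block in only the elo-5 arrays 6522 were called. The sqt-3 difference, not called as deposited, was reversed at -0.19 and called lower with aligned medians; the cause was not tested. Calls of named genes lost without 1 array are given beside the genes. With array medians aligned 3 named genes lost their call (lin-28, mec-9 and sbp-1) and 7 gained one (egl-3, elt-3, fat-2, lin-26, mec-3, srf-3 and unc-54), all 7 lower. Without the intensity trend lin-28 and moe-3 lost theirs, and with only the elo-5 arrays moe-3 and sbp-1, joined by mec-9 with the replicate block. Of the 128 counts of risen or fallen list members, 51 moved by over 1.5 times when some array was left out, 11 of them counts of 10 or more; those beside which no such value is given are counts under 10. Aligning the array medians moved 46 of the 128, the filter at the 50th percentile, which tests fewer genes, 28, and the 2-fold minimum 85; each remaining alternative that kept all 4 elo-5 arrays moved at most 12. With 2 arrays a group, both the spread of a group and the order of its arrays rest on few values, and differences among dim probe sets are compressed by the offset.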

Other observations

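Gene families defined only by the prefix of their names, chosen after the lists had been described, gave further groups. Of 185 prefixes with at least 8 tested genes, 7 had 75% or more of their genes called lower in elo-5 C13ISO larvae and 2 had 75% or more called higher, against 18.9% and 27.2% of all genes tested through their brightest probe set. The 7 were bus, far, fkb, grd, lbp, tba and wrt, and the 2 were abu and gldi; all but fkb and gldi also belong to lists described above. The FK506-binding proteins (fkb), peptidyl-prolyl isomerases that help proteins fold, fell in 6 of 8 genes, with a median of -0.54. The ground-hog proteins (grd), one branch of the hedgehog-related list, fell in 8 of 8, with a median of -2.80. The gldi genes rose in 6 of 8, with a median of 0.57. Below that share, cadherins (cdh), adhesion proteins of cell surfaces, fell in 6 of 9, DEAD-box RNA helicases (ddx) rose in 6 of 9, and nucleolar genes (nol) and unconventional myosins (hum) each rose in 5 of 8. A prefix groups genes by name, and no test was made over a family.

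In 26 of 2450 genes with 2 or more tested probe sets, separate probe sets of the same gene were called in opposite directions between elo-5 C13ISO and elo-5 C17ISO larvae; these were chosen after their values were seen. For ajm-1, which encodes a protein of apical junctions, 1 probe set read 1039 and 1189 in elo-5 C13ISO, against 653 and 567 in elo-5 C17ISO, while another read 410 and 455 in elo-5 C13ISO, against 826 and 816 in elo-5 C17ISO. For eps-8, a capping protein of microvilli, 1 probe set read 930 and 873 in elo-5 C13ISO, against 306 and 235 in elo-5 C17ISO, and the brighter one read 1272 and 1259 in elo-5 C13ISO, against 1723 and 1735 in elo-5 C17ISO. bli-4, a protease that processes collagens, had 433 and 583 in elo-5 C13ISO, against 106 and 109 in elo-5 C17ISO, at 1 probe set and 812 and 874, against 1631 and 1379, at another. The tropomyosin gene lev-11 had 2690 and 3338 in elo-5 C13ISO, against 1301 and 1129 in elo-5 C17ISO, at 1 probe set and 3787 and 4401, against 5150 and 4813, at another. In the list counts, a gene of this kind stands by its brightest probe set alone. Which transcripts each probe set detects was not analysed here.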
